A study of Mus musculus with 8 samples.

Results

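The genes described here are 43 mouse genes of iron handling, heme breakdown, glutathione, thioredoxin and metallothionein metabolism, named by symbol and looked up among the 23993 gene symbols of a table of expression in the thoracic aorta. All 43 were present, and all 43 had a mean of at least 1 FPKM (a level in fragments, scaled for transcript length and library size) over the 8 libraries, the level required for testing. The tested group was 4 male C57BL/6 mice of genotype Tsc1fl/fl with Myh11-CreERT2 and mT/mG, in which tamoxifen lets Cre delete Tsc1 in smooth muscle (Tsc1 knockout). The other group was 4 male mice with the same Cre and the same fluorescent reporter but wild-type Tsc1 (control). Both groups received tamoxifen at 1.5 weeks, and aortas were taken at 24 weeks. Cre is driven by the Myh11 promoter, so cells of the wall other than smooth muscle keep Tsc1, while the RNA came from the whole crushed vessel. In such bulk RNA, fewer cells of a type and less RNA per cell cannot be told apart.

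Tsc1 encodes a partner of tuberin, and the complex holds back the growth kinase mTORC1. Iron inside cells is taken up with transferrin through the transferrin receptor, stored in ferritin and exported by ferroportin, and iron regulatory proteins adjust these steps by binding stem-loops in the messenger RNAs. Iron that is free can turn peroxides into radicals, so its handling is tied to enzymes that remove superoxide, peroxide and lipid peroxides with the help of glutathione and thioredoxin. Many of those enzymes are induced by the transcription factor NRF2 (gene Nfe2l2), which the adaptor KEAP1 marks for degradation until oxidants or electrophiles disable it. In the vessel wall, smooth muscle is also the main maker of extracellular superoxide dismutase.

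As a check of the labels, Tsc1 (mm10 chromosome 2, 28641228 to 28691167) had 2.99, 3.58, 3.37 and 3.71 FPKM in knockouts 1 to 4, against 4.03, 4.82, 4.95 and 6.32 FPKM in controls 1 to 4 (log2 difference -0.44, SE 0.12, limma adjusted p = 0.019). The libraries held 11867 to 12083 genes at 1 FPKM or more, and their depth ran over 0.763 to 2.45 times that of control 1. The summed level of 12 smooth muscle markers was 12652 to 16970 FPKM in knockouts and 19044 to 19762 FPKM in controls, so the labelled cell type was abundant in every library. Genotype divided the libraries along the main axis of variation (44.8%). Along the next axis (16.6%), libraries 1 and 3 of either genotype lay apart from libraries 2 and 4, and no label says what these numbers share.

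In the knockout aortas 18 of the 43 genes were higher and 2 were lower, and 23 did not pass the test (limma on log2(FPKM + 1), two-sided, Benjamini-Hochberg adjusted p under 0.05 over all 12107 tested genes). Both ferritin chains, the inducible heme oxygenase, the transferrin receptor, NRF2 itself and a set of peroxide-removing enzymes were among the higher genes, while thioredoxin and extracellular superoxide dismutase were lower. The members called higher were 41.9% of the list, against 17.1% of all tested genes, and those called lower were 4.65%, against 15.0% of all tested genes. In either direction 46.5% of the members were called, against 32.2% of all tested genes. The median log2 difference was 0.19 over the members and 0.01 over all tested genes. In 17 of the 43 genes all 4 knockouts lay above all 4 controls, and in 3 genes all 4 lay below, together 46.5% of the members against 33.9% of all tested genes. The members were chosen with earlier results of these data known, so these shares describe the list and do not test it. When every library was rescaled to the same FPKM sum without small RNA rows, 21 members were higher and 1 was lower, and of all tested genes 2956 were higher and 1347 lower, against 2074 and 1819 without rescaling. Those sums were 451956 to 466774 FPKM in knockouts and 481934 to 490049 FPKM in controls, without overlap. The rescaling therefore raised knockouts against controls for all genes.

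**Figure D1:**
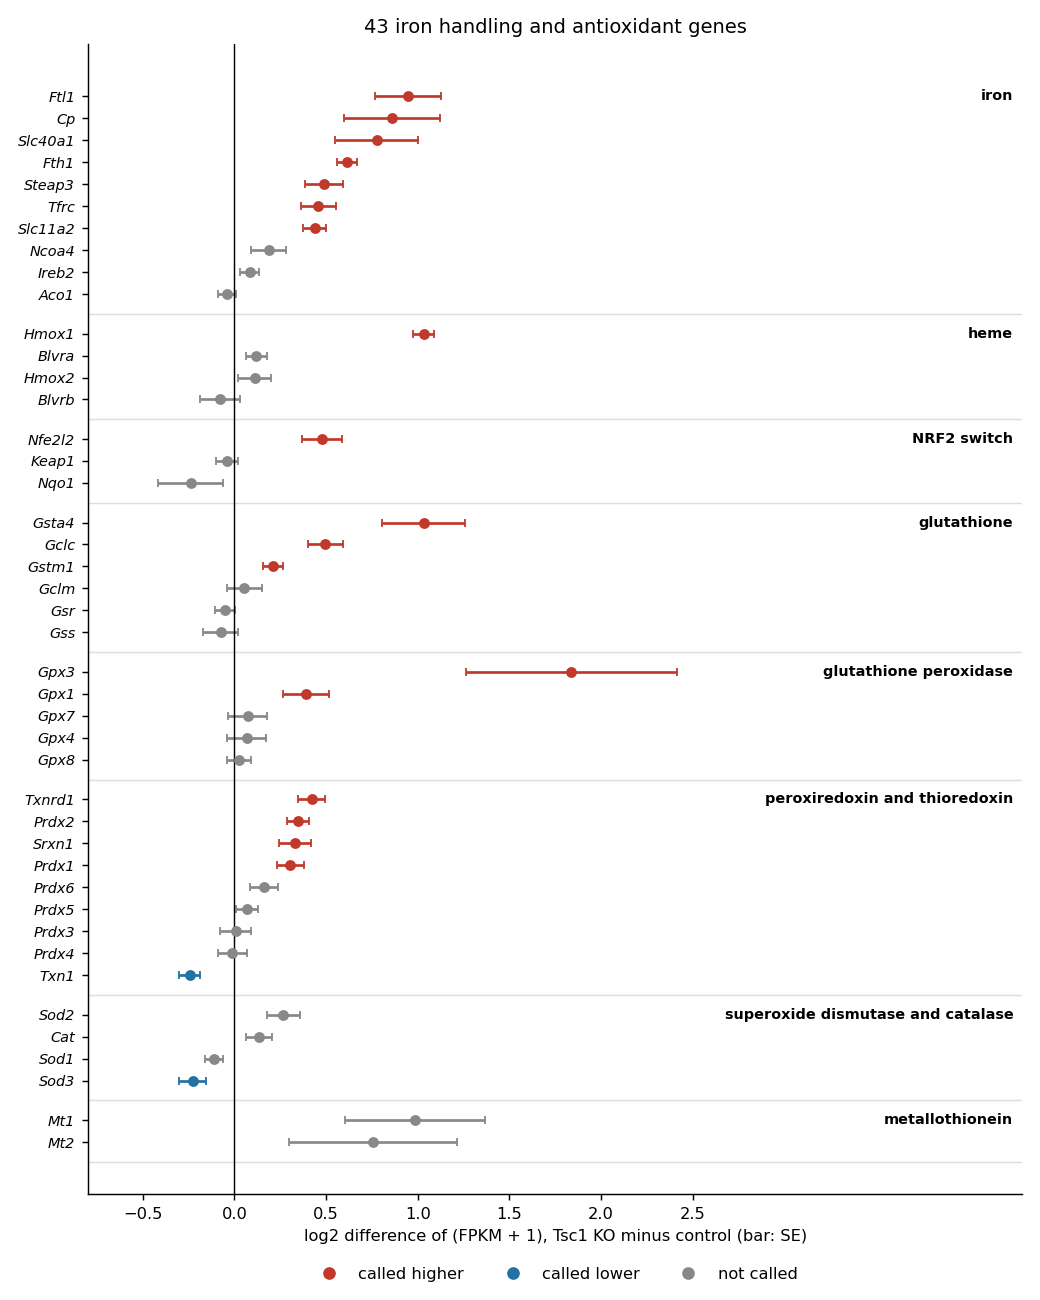
Log2 difference of (FPKM + 1), Tsc1 knockout minus control, for the 43 genes by role, with the standard error from limma (4 knockouts, 4 controls). Red points were called higher (18), blue points lower (2) and grey points were not called (23). The widest bars belong to Gpx3, Mt1 and Mt2.

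Of 10 iron genes, 7 were higher (70%, against 17.1% of all tested genes) and 0 lower (against 15.0%). Those 7 covered storage, uptake, reduction and export. Fth1, the ferritin heavy chain that oxidises iron before storage, had 6168, 5735, 5912 and 5448 FPKM in knockouts 1 to 4, against 3837, 3762, 3752 and 3814 FPKM in controls 1 to 4. The groups stood well apart, and the means differed 1.53-fold (log2 difference 0.62, SE 0.05, limma adjusted p = 1.09e-04). Leaving out the rows of small RNAs, Fth1 ranked 2nd to 4th in level among all genes in the knockouts and 7th to 10th in the controls. Ftl1, the ferritin light chain that helps form the mineral core, had 1857, 1081, 1659 and 1041 FPKM in knockouts, against 724, 694, 742 and 671 FPKM in controls. Every knockout exceeded every control, and knockouts 1 and 3 were far above knockouts 2 and 4 (log2 difference 0.95, SE 0.18, limma adjusted p = 0.00467). Together the 2 chains took 1.44% to 1.75% of the FPKM sum without small RNAs in knockouts, and 0.911% to 0.943% in controls. The ratio of heavy to light chain was 3.32, 5.31, 3.56 and 5.23 in knockouts and 5.30, 5.42, 5.06 and 5.69 in controls, with overlapping ranges (exact permutation p = 0.171, two-sided, adjusted p = 0.206 over 6 ratios). The annotation names 2 pseudogenes after Ftl1, and neither had values of its own. Fragments shared with them could affect the level of Ftl1, this ratio and the summed share.

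The iron-responsive elements that a strict rule found in the members are shown because the same stem-loop stands at opposite ends of the storage and uptake messages. By textbook knowledge, an element before the coding sequence lets iron regulatory proteins block translation, and elements after it let them protect the message from decay. The sequences are from GENCODE M21 transcripts (GRCm38), found as a C, 5 bases, the loop CAGTGN with A, C or T as its last base, and 5 bases that pair with the first 5 (G with T allowed). Capitals mark the loop, and the number is the position of the C before the stem, counted from 1 at the first base of the untranslated region.
Fth1, 5′ region, 93: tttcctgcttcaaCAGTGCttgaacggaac
Ftl1, 5′ region, 84: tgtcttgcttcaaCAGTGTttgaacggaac
Slc40a1, 5′ region, 96: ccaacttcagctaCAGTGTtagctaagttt
Tfrc, 3′ region, 889: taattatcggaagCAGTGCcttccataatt
Tfrc, 3′ region, 1268: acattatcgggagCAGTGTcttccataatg
Tfrc, 3′ region, 1333: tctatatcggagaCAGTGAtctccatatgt
Tfrc, 3′ region, 1380: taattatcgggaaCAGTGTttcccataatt
The 2 ferritin elements share the stem ttcaa and ttgaa on either side of the loop. An element by this rule was found in the 5′ region of 22 of 20916 genes with one (0.105%) and in the 3′ region of 98 of 21045 genes (0.466%). The rule misses any element with another loop or an unpaired base in this stem, so members without a line may still carry one. A match is a description of letters, and binding was not measured.

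Tfrc, the transferrin receptor that brings iron into cells, was higher along with ferritin. It had 4.81, 4.63, 5.28 and 5.27 FPKM in knockouts, against 3.33, 3.13, 2.90 and 4.18 FPKM in controls (log2 difference 0.46, SE 0.10, limma adjusted p = 0.0073). The ranges did not overlap, although control 4 came near the lowest knockout. The log2 ratio of Tfrc to Fth1 averaged -10.19 ± 0.14 in knockouts and -10.14 ± 0.22 in controls (SD, n = 4 each), a difference of -0.04 that was within the spread of the libraries (exact permutation p = 0.771). Slc11a2, the transporter DMT1 that carries ferrous iron out of endosomes, had 10.8, 12.2, 12.5 and 12.04 FPKM in knockouts and 7.91, 8.95, 8.51 and 8.64 FPKM in controls, without overlap (log2 difference 0.44, limma adjusted p = 0.0012). Steap3, the endosomal reductase that readies iron for that transporter, had 18.6, 18.01, 19.6 and 17.7 FPKM in knockouts and 10.4, 15.2, 12.5 and 13.9 FPKM in controls (log2 difference 0.49, limma adjusted p = 0.00735). Receptor, reductase and transporter of the same endosomal route were called higher with all 8 libraries, and Slc11a2 kept its call in every alternative tried. The Tfrc call was lost within libraries 2 and 4 alone (0.36, adjusted p = 0.131), and the Steap3 call without knockouts 1 and 3 (0.44, adjusted p = 0.0565), while within libraries 2 and 4 alone Steap3 differed by 0.28 (adjusted p = 0.0481).

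The export genes were higher in 2 of the knockouts more than in the other 2. Slc40a1, which encodes ferroportin, the iron exporter, was the lowest of the 43 genes in level, with 3.70, 1.52, 3.32 and 1.70 FPKM in knockouts and 1.54, 0.710, 0.934 and 0.912 FPKM in controls. Knockout 2 lay just under control 1, so the groups overlapped (log2 difference 0.78, SE 0.23, limma adjusted p = 0.0292). Cp, ceruloplasmin, the copper oxidase that loads exported iron onto transferrin, had 42.97, 17.6, 36.4 and 19.3 FPKM in knockouts, against 14.7, 14.0, 15.6 and 13.7 FPKM in controls (log2 difference 0.86, SE 0.26, limma adjusted p = 0.0346). Cp overlaps Hps3 on the opposite strand. The Slc40a1 call was lost without knockout 1, knockout 3, control 2, control 3 or control 4 (adjusted p 0.0635 to 0.0757), and the Cp call without knockout 1, knockout 3 or any 1 control (0.0633 to 0.086). The Cp call was also lost with no filter. The regulators themselves were not called. Ireb2 and Aco1, the iron regulatory proteins, averaged 8.86 ± 0.264 and 14.0 ± 0.474 FPKM in knockouts and 8.31 ± 0.272 and 14.4 ± 0.352 FPKM in controls (log2 differences 0.08 and -0.04), and Ncoa4, the receptor that sends ferritin to lysosomes, averaged 34.6 ± 4.24 FPKM in knockouts and 30.2 ± 2.57 FPKM in controls (log2 difference 0.19, limma adjusted p = 0.174).

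**Figure D2:**
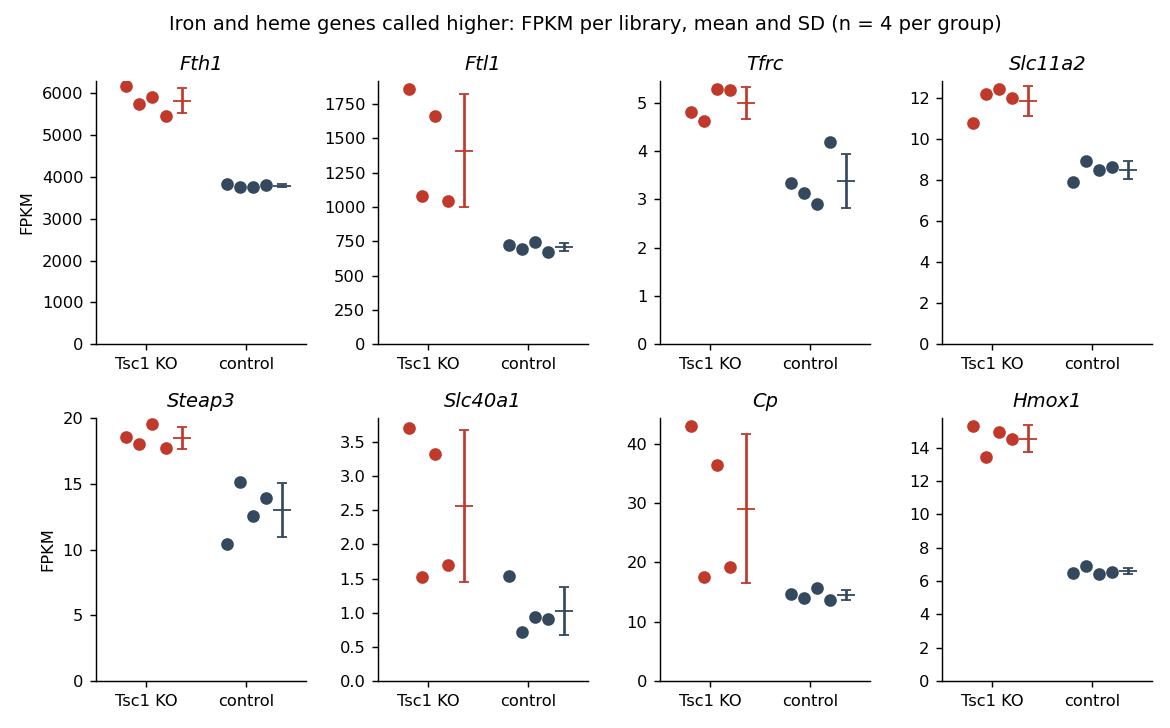
FPKM of the 8 called iron and heme genes in each library, 4 Tsc1 knockouts (red, left) and 4 controls (dark, right), with the mean and SD beside the points and libraries 1 to 4 from left to right in each group. The groups overlap for Slc40a1 alone among these 8 genes, and Ftl1, Slc40a1 and Cp are split between knockouts 1 and 3 and knockouts 2 and 4.

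Of 4 genes of heme breakdown, 1 was higher (25%, against 17.1% of all tested genes) and 0 were lower (against 15.0%). Hmox1, the inducible heme oxygenase that opens the heme ring and frees its iron, had 15.3, 13.4, 14.9 and 14.5 FPKM in knockouts 1 to 4, against 6.48, 6.87, 6.44 and 6.55 FPKM in controls. All knockouts lay far above all controls and close to each other, with means that differed 2.21-fold (log2 difference 1.03, SE 0.06, limma adjusted p = 1.68e-05). Its constitutive relative Hmox2 averaged 20.6 ± 2.43 FPKM in knockouts and 18.9 ± 1.32 FPKM in controls (limma adjusted p = 0.378). Of the biliverdin reductases, which turn the opened ring into bilirubin, Blvra averaged 17.6 ± 1.0005 FPKM in knockouts and 16.1 ± 0.648 FPKM in controls, and Blvrb 27.8 ± 4.41 FPKM and 29.2 ± 2.16 FPKM, neither called. In mm10, Hmox1 lies on chromosome 8, 75093621 to 75100589, Fth1 on chromosome 19, 9980598 to 9985098, and Ftl1 on chromosome 7, 45457944 to 45459884.

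Hemoglobin, macrophage and fat transcripts were read beside these genes, since blood, iron-recycling macrophages and perivascular fat all carry iron or antioxidant genes. Of 21 tested macrophage markers 0 were higher (against 17.1% of all tested genes) and 2 were lower (9.52%, against 15.0%). The 2 lower markers were Lyz1 and Trem2, named after their values were seen. Macrophage markers summed to 289 to 407 FPKM in knockouts and 343 to 489 FPKM in controls. The defining markers Cd68, Csf1r and Emr1 were present in all 8 libraries, and in each genotype the sums of libraries 1 and 3 were above those of libraries 2 and 4. Of 6 tested red cell markers 0 were called (against 32.2% of all tested genes), with sums of 48.4 to 591 FPKM in knockouts and 137 to 1548 FPKM in controls. Of 12 tested fat markers 0 were higher (against 17.1% of all tested genes) and 1 was lower (8.33%, against 15.0%). That 1 was Retn, named after its value was seen. Fat markers summed to 360.0 to 740.3 FPKM in knockouts and 425 to 1255 FPKM in controls. The hemoglobin genes are near-identical copies, and the defining marker Hbb-bs was near 0 in knockouts 1 and 4 and in control 4, while Hba-a1 and Alas2 were present in all 8 libraries. The part of these cells in the differences of the iron genes was not tested beyond these values.

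Nfe2l2, the gene of NRF2, had 50.8, 44.5, 55.5 and 52.2 FPKM in knockouts, against 33.3, 42.9, 31.0 and 38.1 FPKM in controls (log2 difference 0.48, SE 0.11, limma adjusted p = 0.0101). Knockout 2 was only slightly above control 2, and the groups did not overlap. The call was lost within libraries 2 and 4 alone (0.25, adjusted p = 0.149) and without knockouts 1 and 3 (0.41, adjusted p = 0.072). Keap1, its inhibitor, averaged 21.9 ± 0.197 FPKM in knockouts and 22.6 ± 1.50 FPKM in controls (limma adjusted p = 0.619). The ratio of Nfe2l2 to Keap1 was 2.04 to 2.53 in knockouts and 1.33 to 1.83 in controls, without overlap (log2 difference 0.53, exact permutation p = 0.0286, two-sided, the smallest that 70 assignments allow, and adjusted p = 0.0857 over the 6 ratios). The commonly used NRF2 readout Nqo1, a quinone reductase, was not called. It had 10.9, 17.2, 13.6 and 21.1 FPKM in knockouts and 16.3, 20.4, 16.9 and 19.5 FPKM in controls (log2 difference -0.24, SE 0.18, limma adjusted p = 0.333), with overlapping ranges.

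Glutathione genes were split between subunits and steps. Gclc, the catalytic subunit of the rate-limiting ligase, had 15.5, 17.7, 15.2 and 18.9 FPKM in knockouts, against 12.5, 12.2, 9.83 and 12.1 FPKM in controls (log2 difference 0.50, SE 0.10, limma adjusted p = 0.00473). Gclm, the modifier subunit of the same enzyme, averaged 12.6 ± 1.79 FPKM in knockouts and 12.1 ± 0.678 FPKM in controls (limma adjusted p = 0.7). The ratio of Gclc to Gclm was accordingly 1.28 to 1.38 in knockouts and 0.89 to 1.01 in controls, without overlap (log2 difference 0.47, exact permutation p = 0.0286, adjusted p = 0.0857 over the 6 ratios). The next enzyme, Gss, and the reductase that regenerates glutathione, Gsr, had log2 differences of -0.08 and -0.05 and were not called. Of the transferases, Gsta4, which conjugates the lipid peroxidation product 4-hydroxynonenal, had 7.41, 5.73, 11.2 and 6.40 FPKM in knockouts, against 5.003, 2.23, 2.95 and 2.83 FPKM in controls (log2 difference 1.03, SE 0.23, limma adjusted p = 0.00889). Every knockout was above every control, but control 1 lay close to knockout 2. The Gclc and Gsta4 calls were lost within libraries 1 and 3 alone (adjusted p = 0.0678 and 0.0547), and that of Gsta4 without knockouts 1 and 3 (0.77, adjusted p = 0.0504). Gstm1 was far more abundant and changed less, with 518, 541, 503 and 565 FPKM in knockouts and 460, 474, 459 and 445 FPKM in controls (log2 difference 0.21, limma adjusted p = 0.0177), a call lost within libraries 1 and 3 alone (0.15, adjusted p = 0.13). It belongs to a family of similar genes, so its level depends on how shared fragments were assigned.

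Of 5 glutathione peroxidases, which reduce peroxides at the expense of glutathione, 2 were higher (40%, against 17.1% of all tested genes) and 0 lower (against 15.0%). Gpx3, the secreted plasma form, had 1195, 173, 888 and 241 FPKM in knockouts 1 to 4, against 146, 150, 109 and 112 FPKM in controls 1 to 4. All knockouts exceeded all controls, least in knockout 2 and by several-fold in knockouts 1 and 3, with knockout 4 between them. The log2 difference of 1.84 was the largest of the 43 genes and also had the largest standard error, 0.57 (limma adjusted p = 0.0382). Among libraries 1 and 3 alone the difference was 3.02 (adjusted p = 0.0027), and among libraries 2 and 4 alone it was 0.65 (adjusted p = 0.0874). Without knockouts 1 and 3 it was 0.67 (adjusted p = 0.0396), and the call was lost without knockout 1, knockout 3 or any 1 control (1.38 to 1.91, adjusted p 0.0672 to 0.0936). The Gpx3 call was also lost with no filter. Gpx1, the cytosolic form, had 591, 764, 569 and 637 FPKM in knockouts and 431, 554, 423 and 547 FPKM in controls (log2 difference 0.39, limma adjusted p = 0.0403). Its call was lost without knockout 1, 2 or 4 or control 1 or 3 (adjusted p 0.0538 to 0.101). It was also lost with no filter and within libraries 2 and 4 alone. Gpx4, the form that reduces lipid peroxides in membranes and restrains ferroptosis, averaged 292 ± 38.8 FPKM in knockouts and 278 ± 28.4 FPKM in controls, and Gpx7 and Gpx8 of the endoplasmic reticulum had log2 differences of 0.07 and 0.02. None of these 3 was called.

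Peroxiredoxins, which reduce peroxide with electrons from thioredoxin, were higher for Prdx1 and Prdx2, which are mainly cytosolic. Prdx1 had 224, 225, 229 and 232 FPKM in knockouts, against 192, 172, 206 and 168 FPKM in controls (log2 difference 0.31, limma adjusted p = 0.012). Prdx2 had 151, 139, 149 and 134 FPKM in knockouts, against 111, 109.8, 120 and 109 FPKM in controls (log2 difference 0.35, limma adjusted p = 0.00295). For neither gene did the groups overlap, and Prdx1 was nearly constant among knockouts. Prdx2 overlaps Junb and Rnaseh2a on the opposite strand, so fragments of these genes could have been shared. Mitochondrial Prdx3, Prdx4 of the endoplasmic reticulum, Prdx5 and the 1-cysteine form Prdx6 had log2 differences of 0.01, -0.01, 0.07 and 0.16, and none was called. Srxn1, sulfiredoxin, which repairs over-oxidised peroxiredoxins, had 20.9, 22.8, 21.1 and 24.9 FPKM in knockouts, against 15.1, 18.4, 18.2 and 18.9 FPKM in controls (log2 difference 0.33, limma adjusted p = 0.0191). Within libraries 1 and 3 alone the Srxn1 call (adjusted p = 0.0904) and the Prdx1 call (0.18, adjusted p = 0.106) were lost, the second also without knockouts 1 and 3 (adjusted p = 0.0561).

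Thioredoxin and its reductase moved in opposite directions. Txnrd1, the selenoenzyme that recharges thioredoxin with NADPH, had 26.0, 27.0, 27.0 and 29.3 FPKM in knockouts, against 17.7, 21.6, 20.8 and 20.7 FPKM in controls (log2 difference 0.42, SE 0.07, limma adjusted p = 0.0027). Txn1, cytosolic thioredoxin, had 108, 118, 109.6 and 113 FPKM in knockouts, against 138, 126, 141 and 128 FPKM in controls (log2 difference -0.24, SE 0.06, limma adjusted p = 0.0121). For each gene the 2 groups did not overlap. Txnrd1 kept its call in every alternative tried, whereas the Txn1 call was lost within libraries 2 and 4 alone (-0.13, adjusted p = 0.126) and without knockouts 1 and 3 (-0.20, adjusted p = 0.0802). Txnrd1 overlaps Eid3 on the same strand and 2 genes on the opposite strand. Fragments of these genes could have been shared, which none of the alternatives addressed.

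Of 4 superoxide dismutase and catalase genes, 1 was lower (25%, against 15.0% of all tested genes) and 0 were higher (against 17.1%). Sod3, the extracellular enzyme and after Fth1 and Ftl1 the most abundant of the 43 genes over the 8 libraries, had 847, 875, 895 and 752 FPKM in knockouts, against 924, 1051, 948 and 1023 FPKM in controls (log2 difference -0.23, SE 0.07, limma adjusted p = 0.0395). The groups did not overlap, but the direction depended on scaling: quantile normalization gave a log2 difference of 0.07. The call was lost with equal sums (-0.15, adjusted p = 0.115), with no filter (adjusted p = 0.0952), within libraries 1 and 3 alone (-0.10, adjusted p = 0.314) and within libraries 2 and 4 alone (-0.35, adjusted p = 0.0575). Without knockouts 1 and 3 it was lost too (-0.28, adjusted p = 0.0597), and without knockout 1, 2 or 4 or control 2, 3 or 4 the call was lost (-0.25 to -0.18, adjusted p 0.0542 to 0.106). Sod1, the cytosolic enzyme, also lay lower in all 4 knockouts, at 316 to 338 FPKM against 341 to 358 FPKM in controls, and did not pass (log2 difference -0.11, limma adjusted p = 0.107, and 0.05 with quantile normalization). Sod2, the mitochondrial manganese enzyme, had 19.6, 19.96, 21.3 and 23.1 FPKM in knockouts and 20.3, 16.0, 17.4 and 15.6 FPKM in controls (log2 difference 0.27, limma adjusted p = 0.0516). It was called without control 1 (log2 difference 0.34, adjusted p = 0.0129). Cat, catalase, averaged 45.5 ± 1.35 FPKM in knockouts and 41.4 ± 4.06 FPKM in controls and was called without control 1, the highest library (0.20, adjusted p = 0.0231). In that control the fat marker sum was also the highest of the 8 libraries, 1255 FPKM.

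Metallothioneins, small cysteine-rich proteins that bind zinc and copper and are induced by metals, glucocorticoids and oxidants, followed the library number as well as the genotype. Mt1 had 481, 807, 343 and 724 FPKM in knockouts 1 to 4, against 212, 502, 163 and 358 FPKM in controls 1 to 4. Mt2 had 158, 287, 95.9 and 272 FPKM in knockouts, against 76.4, 208, 59.6 and 152 FPKM in controls. In both genotypes libraries 2 and 4 were above libraries 1 and 3 for both genes. At each number the knockout was above the control for both genes, though the numbers were not taken as pairs. With genotype as the only term neither was called (log2 differences 0.99 and 0.76, limma adjusted p = 0.0793 and 0.241). With a covariate for odd or even number both were (adjusted p = 0.0015 and 0.0088). No label gives this grouping, and both genes themselves follow it, so the covariate takes up much of their spread within a genotype. Within libraries 1 and 3 the differences were 1.13 and 0.86 (adjusted p = 0.0235 and 0.0826), and within libraries 2 and 4 they were 0.85 and 0.65 (0.0321 and 0.0443). The Mt1 call was also gained without knockout 3 (1.22, adjusted p = 0.0479) or control 2 (1.27, adjusted p = 0.0356). The ratio of Mt1 to Mt2 was 2.66 to 3.58 in knockouts and 2.36 to 2.77 in controls (exact permutation p = 0.114). The genes are neighbours on mm10 chromosome 8, Mt2 at 94172664 to 94173568 and Mt1 at 94179082 to 94180327.

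The promoters of the pair are shown because they moved together and carry the letters of the metal response element, to which the zinc-sensing factor MTF1 binds. Each is the RefSeq window (GRCm38.p6, plus strand) from 250 bases before to 50 bases after the gene's start, Mt1 at chr8:94178839-94179138 and Mt2 at chr8:94172368-94172667, and capitals mark TGCACNC or TGCGCNC on either strand.
Mt1: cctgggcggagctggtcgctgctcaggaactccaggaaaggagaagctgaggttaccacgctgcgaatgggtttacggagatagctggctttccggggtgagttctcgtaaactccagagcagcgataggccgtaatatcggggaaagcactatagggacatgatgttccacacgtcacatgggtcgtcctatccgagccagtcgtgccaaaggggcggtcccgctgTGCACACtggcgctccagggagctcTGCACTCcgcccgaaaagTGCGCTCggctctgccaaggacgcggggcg
Mt2: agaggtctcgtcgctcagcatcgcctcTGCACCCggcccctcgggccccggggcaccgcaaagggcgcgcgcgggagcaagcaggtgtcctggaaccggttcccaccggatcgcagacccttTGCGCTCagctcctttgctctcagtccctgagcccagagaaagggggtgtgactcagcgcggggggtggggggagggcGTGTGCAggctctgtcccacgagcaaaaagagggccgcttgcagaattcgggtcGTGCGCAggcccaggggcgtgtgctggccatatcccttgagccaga
There were 3 matches in the Mt1 window and 4 in the Mt2 window. Of all 32851 promoter windows, 25.7% held at least 1 match, 1.97% at least 3 and 0.517% at least 4. Mtf1 itself, the gene of the factor, averaged 4.49 ± 0.450 FPKM in knockouts and 4.54 ± 0.522 FPKM in controls and was not called.

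**Figure D3:**
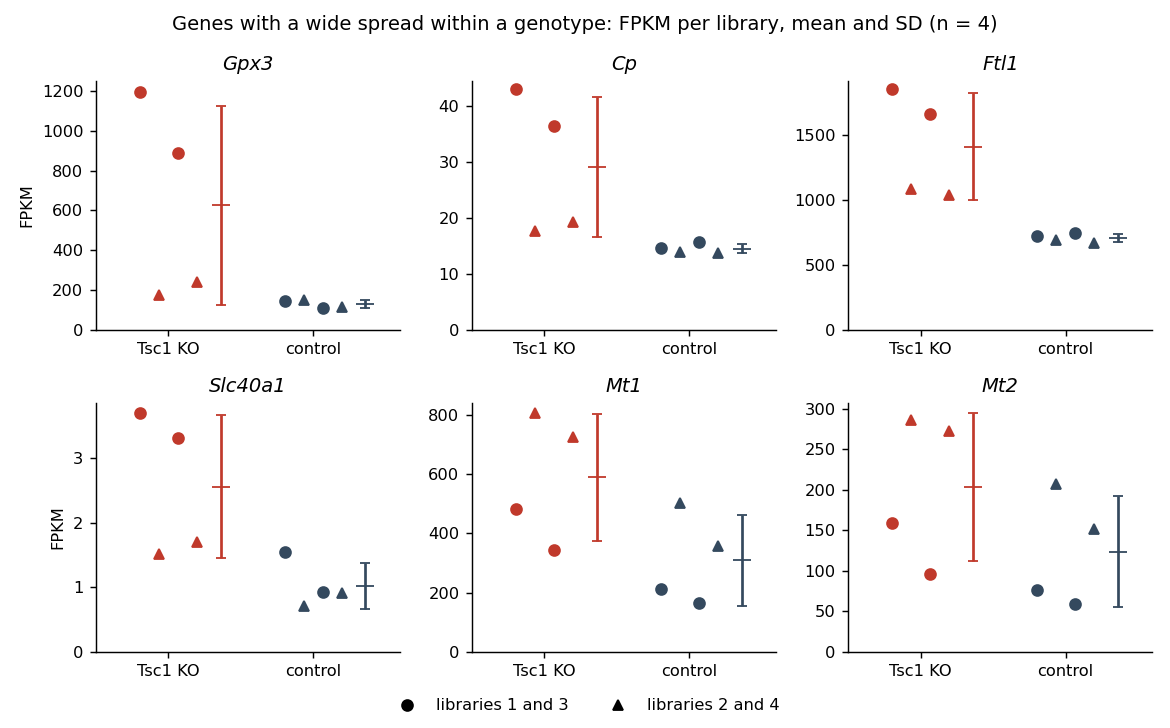
FPKM per library of 6 genes with a wide spread inside a genotype, 4 Tsc1 knockouts (red, left) and 4 controls (dark, right), with mean and SD. Circles are libraries 1 and 3 and triangles libraries 2 and 4. Gpx3, Cp, Ftl1 and Slc40a1 are highest in knockouts 1 and 3, and Mt1 and Mt2 are higher in libraries 2 and 4 of both genotypes.

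The split of knockouts 1 and 3 from knockouts 2 and 4 went with other measures of the same libraries. Smooth muscle markers summed to 12652 and 13588 FPKM in knockouts 1 and 3, and to 16970 and 15977 FPKM in knockouts 2 and 4. Controls did not show this: the sums were 19762 and 19684.5 FPKM in controls 1 and 3, and 19044 and 19353 FPKM in controls 2 and 4. Macrophage markers summed to 407 and 388 FPKM in knockouts 1 and 3, and to 289 and 305 FPKM in knockouts 2 and 4. The macrophage sums were split in the same way in controls, at 453 and 489 FPKM in controls 1 and 3 and 369 and 343 FPKM in controls 2 and 4. Of 12 smooth muscle markers 6 were lower (50%, against 15.0% of all tested genes) and 0 higher (against 17.1%) in knockouts. Among 13 endothelial markers 10 were lower (76.9%) and 0 higher, and among 13 fibroblast markers 6 were lower (46.2%) and 0 higher. The part of these shifts in the values of Gpx3, Cp, Ftl1 and Slc40a1 was not tested. Without knockouts 1 and 3, 14 members were higher and 0 lower, with Ftl1 (log2 difference 0.58, adjusted p = 0.0021) and Cp (0.33, adjusted p = 0.026) still called and Slc40a1 not (0.38, adjusted p = 0.145). Of all genes called in that setting 53.9% were higher, against 53.3% in the main analysis.

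Other genes of the same pathways were taken from 7 lists drawn up with earlier results of these data known. Among 23 tested NRF2 targets and partners that are not among the 43, 14 were higher (60.9%, against 17.1% of all tested genes) and 2 lower (8.70%, against 15.0%), 7 did not pass, and the median log2 difference was 0.33. Ephx1, the microsomal epoxide hydrolase, had 276 ± 17.1 FPKM in knockouts and 124 ± 28.8 FPKM in controls (log2 difference 1.17). Sqstm1, the autophagy receptor p62 that also binds KEAP1, had 415 ± 19.8 FPKM in knockouts and 223 ± 28.1 FPKM in controls (0.90). Abcc4, an efflux pump, had 3.80 ± 0.715 FPKM in knockouts and 1.45 ± 0.0552 FPKM in controls (0.96), and Cbr1, a carbonyl reductase, 38.1 ± 2.79 FPKM and 20.4 ± 1.95 FPKM (0.87). The 2 lower genes, Fbxo30 (-0.82) and Mafk (-0.36), and Bach1 (0.43), a heme-sensing repressor of Hmox1 that was higher, are named after their values were seen. Sqstm1 is also a target of MiT/TFE factors, so the list is not particular to NRF2. Within libraries 2 and 4 alone, 9 of the list were higher and 1 lower, and of all genes called there 51.9% were higher.

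The NRF2 binding core TGACNNNGC, the antioxidant response element, is shown where the promoter windows of members held it. Of the 35 members with a RefSeq window, 9 held the core on either strand, against 3781 of 27025 genes with a window (14%). Each line gives the core in capitals with 10 bases on either side, read in the direction of the core.
Nfe2l2, chr2:75704885-75704913, minus strand: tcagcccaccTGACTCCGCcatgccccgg
Prdx1, chr4:116685456-116685484, minus strand: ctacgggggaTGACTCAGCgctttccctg
Srxn1, chr2:152105542-152105570, minus strand: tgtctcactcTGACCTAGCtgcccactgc
Txnrd1, chr10:82859104-82859132, minus strand: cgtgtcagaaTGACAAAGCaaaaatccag
Gclm, chr3:122245413-122245441, minus strand: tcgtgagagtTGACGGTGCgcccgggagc
Mt2, chr8:94172529-94172557, plus strand: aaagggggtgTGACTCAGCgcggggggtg
Blvra, chr2:127070598-127070626, minus strand: ggcggagcctTGACCGAGCaattcccgtg
Ncoa4, chr14:32165735-32165763, plus strand: aggcggggcgTGACCTGGCcggtagggta
Sod1, chr16:90220696-90220724, minus strand: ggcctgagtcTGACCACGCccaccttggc
The lines are ordered by call: the first 4 of these 9 genes were called higher and the other 5 were not called. Of all 43 members, 18 were called higher (41.9%), and of all tested genes 17.1%. No match in the window says only that these letters are not there.

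Of 27 other glutathione genes 7 were higher (25.9%, against 17.1% of all tested genes) and 0 lower (median 0.12), led by the membrane-bound transferases Mgst1, at 114 ± 29.5 FPKM in knockouts and 39.0 ± 9.31 FPKM in controls (log2 difference 1.52), and Mgst3, at 89.7 ± 5.85 FPKM and 41.3 ± 3.01 FPKM (1.10), with Gstm6 (0.76) and Gstm2 (0.49) after them. With equal sums, or with the covariate for odd or even number, 11 of this list were higher. Of 34 other iron and heme genes 7 were higher (20.6%, near the 17.1% of all tested genes) and 3 lower (8.82%, against 15.0%), with a median of 0.11. Heph, hephaestin, the membrane-bound relative of ceruloplasmin, had 3.64 ± 0.985 FPKM in knockouts and 1.64 ± 0.317 FPKM in controls (0.80), Mcoln1, the lysosomal channel that releases iron, 21.1 ± 0.547 FPKM and 12.8 ± 1.07 FPKM (0.68), and Slc48a1, the lysosomal heme transporter, 153 ± 2.54 FPKM and 105 ± 11.7 FPKM (0.54). Cpox, an enzyme of heme synthesis, followed at 0.39. The 3 lower genes, Slc39a14, Slc25a28 and Pcbp2, had log2 differences of -0.34, -0.31 and -0.24 and are named after their values were seen. Without knockouts 1 and 3, 4 of this list were higher, and with equal FPKM sums 12 were. Equal sums raised knockouts against controls for all genes, so the counts under it are not particular to these lists. The median log2 difference of all tested genes was then 0.08, against 0.01 in the main analysis. Of all genes called, 68.7% were higher with equal sums and 53.3% in the main analysis.

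Of 17 other thioredoxin, methionine sulfoxide and selenium genes 5 were higher (29.4%, against 17.1% of all tested genes) and 3 lower (17.6%, near the 15.0% of all tested genes). The stress-induced sestrins Sesn3 and Sesn2 had log2 differences of 1.39 and 0.89, and Sepp1, the secreted selenium carrier, had 762 ± 82.4 FPKM in knockouts and 343 ± 44.0 FPKM in controls (1.15). Msrb1, a selenium-dependent methionine sulfoxide reductase, was lower, at 165 ± 34.6 FPKM in knockouts and 304 ± 19.8 FPKM in controls (-0.90), and Sepw1 (-0.65) and Msrb3 (-0.40) were the other lower genes, named after their values were seen. Of 11 sources of oxidants 2 were higher (18.2%, near the 17.1% of all tested genes) and 3 lower (27.3%, against 15.0%). Maob and Maoa, the monoamine oxidases that make peroxide at the mitochondrial surface, had log2 differences of 1.36 and 0.89. Noxo1, an organiser of NADPH oxidase, had 1.52 ± 0.224 FPKM in knockouts and 6.51 ± 1.11 FPKM in controls (-1.57), and Nos3, endothelial nitric oxide synthase, had a log2 difference of -1.02 beside endothelial markers that summed to 179 to 245 FPKM in knockouts and 303 to 393 FPKM in controls. Nox4, the main NADPH oxidase of smooth muscle, had 143 to 206 FPKM in knockouts and 102 to 153 FPKM in controls and was not called (0.36, limma adjusted p = 0.107).

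Among 12 other genes of zinc and copper transport 5 were higher (41.7%, against 17.1% of all tested genes) and 0 lower, with Slc30a4 (log2 difference 0.37), the copper importer Slc31a1 (0.36), the copper pump Atp7a (0.36) and Slc31a2 (0.34) in front. Without knockouts 1 and 3, 3 of these were higher, and within libraries 2 and 4 alone 1 was. Of 12 genes of lipid peroxidation and ferroptosis 4 were higher (33.3%, against 17.1% of all tested genes) and 1 lower (8.33%, against 15.0%). The higher genes were Sat1 (0.60), Vdac3 (0.32), Acsl4 (0.25), which arms membranes with oxidisable fatty acids, and Vdac2 (0.20, named after its value was seen). The lower gene was Alox12 (-0.63), with 0.841 ± 0.348 FPKM in knockouts and 1.82 ± 0.255 FPKM in controls. Its knockout mean was under 1 FPKM, so it reached the level for testing only through its controls. Without any 1 library other than knockout 1 or 3, 2 of this list were higher. Leaving libraries out can change the calls of any gene, so the counts in such settings are not particular to these lists. The cystine importer Slc7a11 did not reach the level for testing, with 0.0589 FPKM at most in any library.

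**Figure D4:**
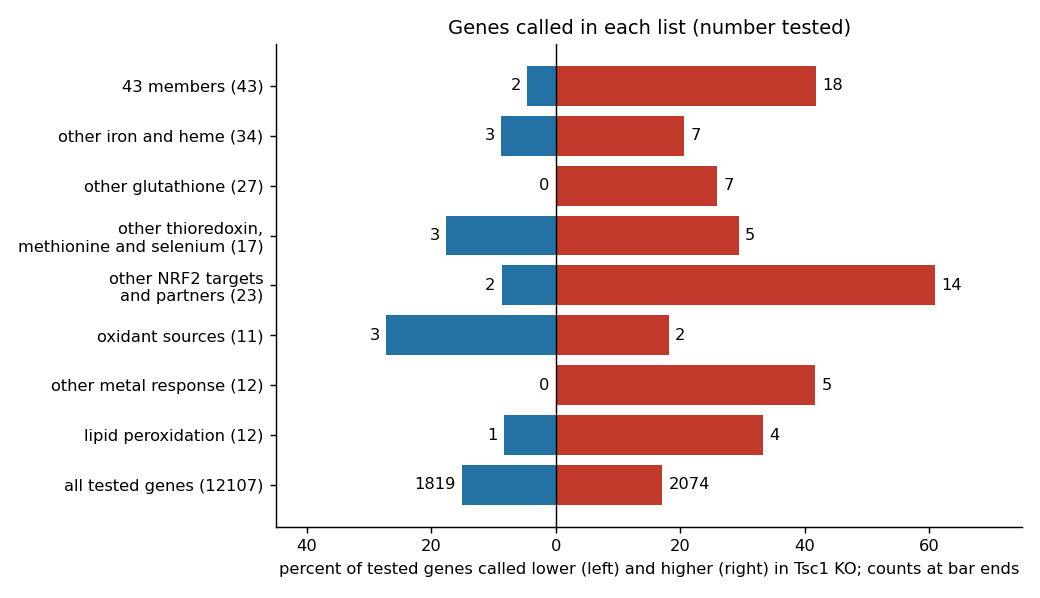
Percent of tested genes called higher (red, right) and lower (blue, left) in Tsc1 knockout aortas for the 43 genes, 7 further lists and all 12107 tested genes, with the number tested in brackets and counts at the bar ends. The NRF2 targets and partners have 14 of 23 genes higher, and all tested genes have 2074 higher and 1819 lower.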

How the data were processed

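RNA from 8 whole thoracic aortas, 500 ng each with RIN above 7 and selected for polyA, was measured by RNA-seq. The values are FPKM per gene as deposited by the authors, and the submitters' processing notes name TopHat2, Cufflinks, Cuffdiff and mm10, with no role or strand setting. FPKM keeps no absolute depth, so only relative depth was estimated, from the steps of genes under 0.3 FPKM. Values were taken as log2(FPKM + 1), which understates the change of low genes. The 12107 of 23993 genes whose mean reached 1 FPKM entered a limma fit (version 3.58.1, R 4.3.3) with a mean-variance trend, genotype as the only term and Benjamini-Hochberg adjustment at 0.05. Ratios of 2 members were compared by an exact permutation test over the 70 assignments of libraries. The members and lists were chosen with earlier results of these data known. From each further list, up to 4 called genes with the largest difference are named, and any other is said to be chosen after its value was seen. Coordinates and transcripts are GENCODE M21 (GRCm38, the same build as mm10), and promoters RefSeq GRCm38.p6, which matched 35 of 43 members. On the annotation, 13 members overlap a gene of the opposite strand (Cp with Hps3 and Gss with Acss2, for example). On the same strand 6 members overlap a gene (Txnrd1 with Eid3, for example). Fragments of overlapping genes could be shared. The alternatives were another pseudocount, no filter, 3 scalings, library number as a block or covariate, odd or even libraries alone, and leaving out each library, with knockouts 1 and 3 together added after seeing the data. In the list of oxidant sources 1 gene is counted but not reported here.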

Additional observations from a re-analysis of the deposited data

Results flagged for a closer look

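In 6 of 86 groups of 4 libraries, 1 library stood far from the other 3 for 1 of the genes, judged by its gap to the nearest library as a share of the group's range. Chance flags about 1 group in 20. In knockouts, Sod1 was high in knockout 2, at 338 FPKM. Among controls, Keap1 was low in control 1, at 20.3 FPKM, and Cat was high there, at 47.5 FPKM. In control 3, Gclc was low, at 9.83 FPKM, Gclm was low, at 11.04 FPKM, and Prdx2 was high, at 120 FPKM.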

How the results depend on the processing

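Over 18 alternatives, 6 of the 20 called members kept their call in every one (Fth1, Ftl1, Slc11a2, Hmox1, Prdx2 and Txnrd1), and 14 lost it in at least 1, among which Sod3 changed sign with quantile normalization (0.0694). Of the uncalled members 7 gained a call in at least 1. The count of members higher in knockouts, 18 in the main analysis, was 15 with no filter, 22 with a covariate for odd or even number, 14 among odd and 18 among even libraries, 14 to 17 with 1 library left out and 14 without knockouts 1 and 3. The count lower, 2 in the main analysis, was 1 with no filter, equal sums, quantile normalization, a replicate block or odd libraries alone, 0 with even libraries alone or without knockouts 1 and 3, and 1 to 2 with 1 library left out. A setting can also change how many of all tested genes are called, so these counts are not particular to the members. Of all genes called, 53.3% were higher in the main analysis, 53.0% with no filter and 52.8% with the odd or even covariate. The share was 53.2% among odd libraries, 51.9% among even libraries and 53.9% without knockouts 1 and 3. Same-numbered knockouts and controls correlated at 0.0656, 0.138, 0.135 and 0.173 in their deviations, not every library correlated best with its own number, and the numbers were not taken as pairs; with the replicate block 20 members were higher and 1 lower, and 2349 and 2122 of all tested genes, and the Sod3 call was lost (adjusted p = 0.0553).

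The knockout-minus-control difference in the log2 ratio of Tfrc to Fth1 ran over -0.108 to 0.0605 with 1 library left out, against -0.04 with all 8. Uncalled members whose small log2 difference changed sign were as follows. With equal sums these were Aco1 (0.0341), Keap1 (0.0346), Gsr (0.0226) and Prdx4 (0.0669). With quantile normalization they were Prdx3 (-0.00396), Prdx4 (0.0377) and Sod1 (0.0513), and with median-of-ratios scaling Prdx3 (-0.00536). Among odd libraries they were Ncoa4 (-0.0247), Keap1 (0.015), Gclm (-0.059), Gss (0.00215) and Prdx3 (-0.139), and among even libraries Aco1 (0.00863), Gpx4 (-0.0387), Gpx7 (-0.0663) and Prdx4 (0.0872). Without knockouts 1 and 3 they were Nqo1 (0.0625), Gpx4 (-0.0969), Gpx7 (-0.114) and Gpx8 (-0.00838). With 1 library left out, the range crossed 0 for Blvrb (-0.171 to 0.00597), Gclm (-0.0218 to 0.111), Gpx8 (-0.0212 to 0.0559), Prdx3 (-0.0624 to 0.0687) and Prdx4 (-0.0791 to 0.0422). The cause was not tested. Absolute depth is unknown, so the precision it gives at low levels such as that of Slc40a1 could not be given.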
